A study of Homo sapiens with 6 samples.

Results

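The SR and hnRNP splicing regulators were examined in H9 cells treated with the CDK9 inhibitor AZD4573. The set was defined by gene name, as every row named SRSF or HNRNP plus TRA2A, TRA2B, SON, SRRM1, SRRM2, CLK1 to CLK4, SRPK1 and SRPK2. Names of pseudogenes and names with a hyphen were left out. The rule gave 48 of 61541 genes in the count table, namely 12 SR protein genes, 5 genes of SR-related proteins, 6 SR protein kinase genes and 25 hnRNP genes. Of these 48, 43 had enough counts to be tested. SRSF12, HNRNPCL2, HNRNPCL3 and HNRNPCL4 had 0 counts in each of the 6 libraries, and HNRNPCL1 had at most 2.

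SR proteins bind exons through RNA recognition motifs and recruit the spliceosome through a domain rich in arginine and serine. The kinases SRPK1 and SRPK2 in the cytoplasm and CLK1 to CLK4 in the nucleus phosphorylate that domain, which controls where SR proteins reside and when they act. hnRNPs coat nascent transcripts and often work against SR proteins by blocking splice sites or enhancers. Many genes of both families tune their own level through exons or introns whose retention sends the mRNA to nonsense-mediated decay.

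H9 is a human cutaneous T-cell lymphoma (CTCL) line, wild type in all 6 libraries of this bulk RNA-seq experiment. The paper describes most of its cell lines as p53-deficient without naming them, so wild type here is no statement on mutations of the line. AZD4573 selectively blocks CDK9, the kinase that releases paused RNA polymerase II. The treated group comprised 3 libraries exposed to 50 nM AZD4573 for 4 h and the control group 3 libraries exposed to the vehicle DMSO, for which the labels give no time. Nothing in the labels says that the 3 libraries of a group came from separate cultures, so p-values measure only the spread between these libraries, which may be technical.

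Total counts ranged from 70367303 to 76571157 in the DMSO libraries and from 52101868 to 63795185 in the AZD4573 libraries. Values are given as CPM, a gene's counts scaled to a common library size after TMM normalization. A count of 0 allows up to 0.0382 to 0.059 CPM, depending on the library, and this limit covers counting error only. Of 9 T-cell markers, 8 reached 1 CPM, the exception being CD2, and their sum was 1246 to 1279 CPM with DMSO and 1831 to 1933 CPM with AZD4573. PTPRC took most of this difference (413 to 873 CPM), whereas CD247 (214 to 198 CPM) and CD28 (5.85 to 4.35 CPM) were lower. Among B-cell markers, CD79A had a mean of 57.8 CPM with DMSO and 93.6 CPM with AZD4573 and CD79B 5.66 and 3.46 CPM, whereas MS4A1 (0.192 and 0.302 CPM) and PAX5 (0.0127 and 0.0120 CPM) stayed near 0. EPCAM alone of 5 epithelial markers was above 1 CPM (sum 150 to 168 and 133 to 137), and summed myeloid and erythroid markers stayed at or below 2.08 CPM. The part of these marker levels in the results was not tested.

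The promoters of the 3 SR protein genes that fell most and of the 3 regulators that rose past the fold threshold are shown as the 120 bases before the transcription start, 5′ to 3′ on the gene's strand, from the RefSeq promoter windows on GRCh38.p14. The 3 genes that fell were SRSF7 at chr2:38751362-38751481 (minus strand), SRSF6 at chr20:43457776-43457895 (plus strand) and SRSF3 at chr6:36594242-36594361 (plus strand). The 3 that rose were SRSF11 at chr1:70221260-70221379 (plus strand), CLK2 at chr1:155273505-155273624 (minus strand) and CLK3 at chr15:74615716-74615835 (plus strand). Capitals mark exact matches on either strand to the CCAAT box of NF-Y, the GGGCGG box of SP1, the TGACG core of CREB and ATF sites, the CACGTG E-box, the TATAAA box, the CCGGAAG site of ETS factors or the AGATAA site of GATA factors.
SRSF7: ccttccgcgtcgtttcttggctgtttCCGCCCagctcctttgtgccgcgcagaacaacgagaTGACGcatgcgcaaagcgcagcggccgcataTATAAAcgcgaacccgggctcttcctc
SRSF6: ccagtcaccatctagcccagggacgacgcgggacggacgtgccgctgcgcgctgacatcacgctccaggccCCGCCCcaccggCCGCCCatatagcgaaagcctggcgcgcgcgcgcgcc
SRSF3: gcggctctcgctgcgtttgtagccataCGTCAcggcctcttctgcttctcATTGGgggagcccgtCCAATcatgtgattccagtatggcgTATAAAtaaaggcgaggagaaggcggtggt
SRSF11: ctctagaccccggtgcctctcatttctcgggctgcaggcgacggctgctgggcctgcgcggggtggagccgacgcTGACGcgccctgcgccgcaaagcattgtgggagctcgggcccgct
CLK2: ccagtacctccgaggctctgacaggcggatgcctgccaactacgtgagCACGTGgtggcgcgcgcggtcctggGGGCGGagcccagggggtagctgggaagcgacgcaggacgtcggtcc
CLK3: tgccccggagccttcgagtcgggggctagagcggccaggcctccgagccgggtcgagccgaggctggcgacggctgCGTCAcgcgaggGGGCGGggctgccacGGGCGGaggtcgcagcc

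Upon AZD4573 treatment, the regulators split by family. On the TMM scale, SR protein genes were mostly lower and the SR protein kinases diverged. Most genes named HNRNP moved little and in both directions. Under a mitochondrial scaling given after these counts, only CLK2 and CLK3 stayed above 0. A gene was called when it changed at least 1.5-fold with an adjusted p under 0.05, where p came from the quasi-likelihood test of edgeR with Benjamini-Hochberg adjustment over 17678 genes. By that rule 10 of 43 regulators were lower, 23.3% of those tested against 23.7% of all genes, and 3 were higher, 6.98% against 22.7% of all genes. The share called lower was thus close to that of all genes and the share called higher was below it. By the adjusted p alone, which is what fell and rose mean here, 22 regulators fell, 12 rose and 9 did not pass, where 37.4% of all genes fell and 37.3% rose. Each AZD4573 library lay below each DMSO library for 22 regulators (38.7% of all genes) and above for 12 (39% of all genes). The median log2 fold change was -0.14 over the 43 regulators and 0.03 over all genes. Most regulators are abundant. Of the 9658 genes with a mean of 10 CPM or more in either group, 28.3% were called lower and 12.1% higher, with a median of -0.14. By the adjusted p alone, 4879 of these 9658 fell and 3389 rose. Their groups did not overlap for 4966 (lower) and 3475 (higher).

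**Figure D1:**
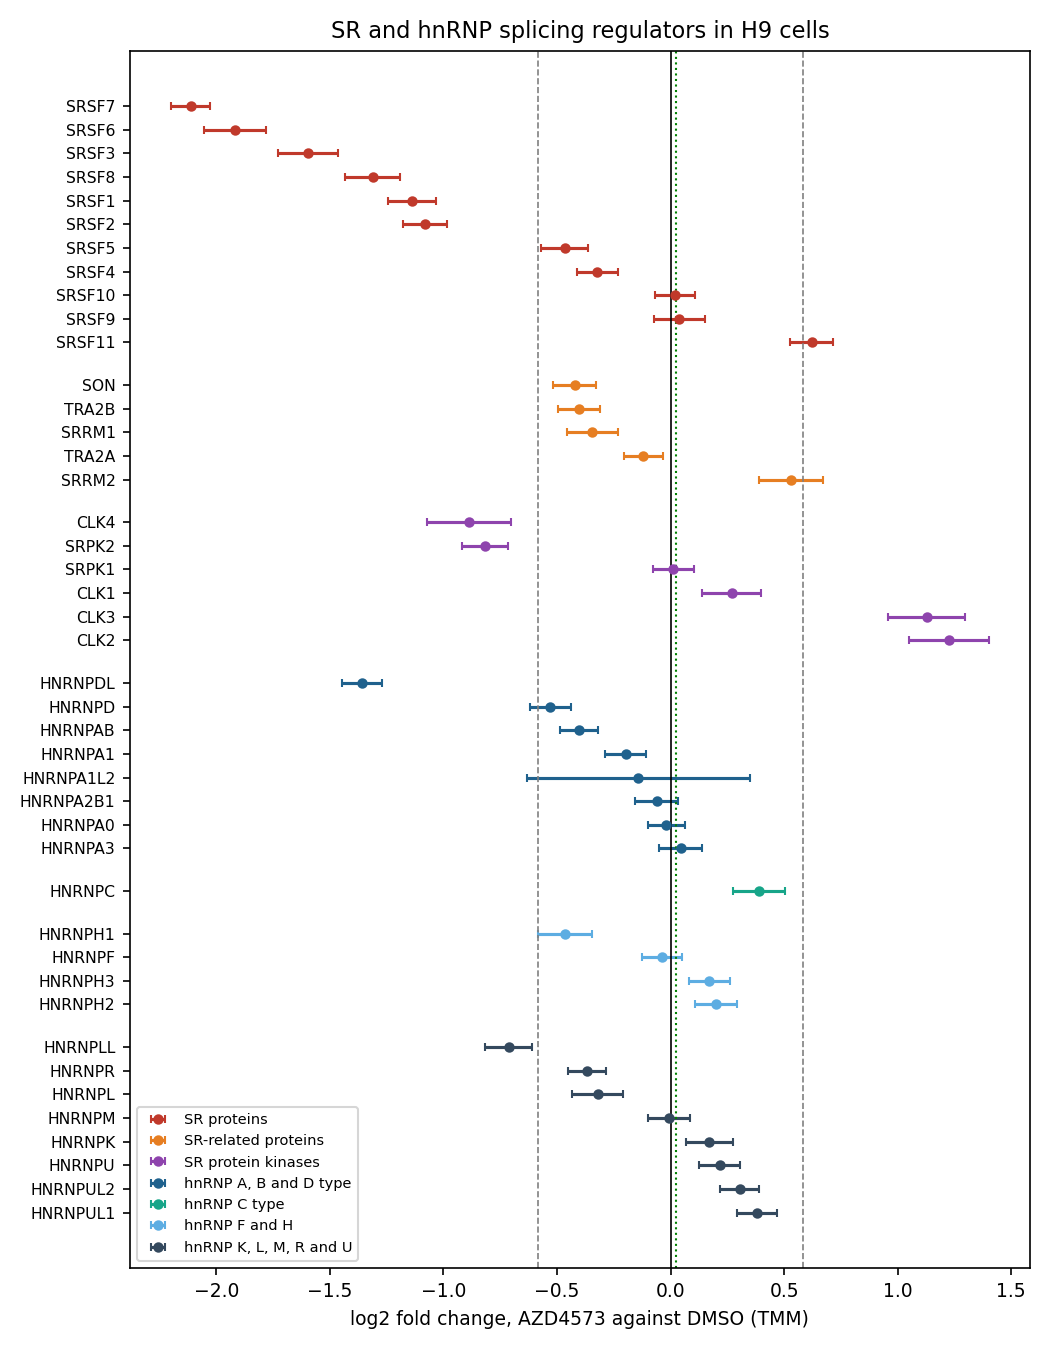
Log2 fold change of AZD4573 over DMSO (horizontal axis, TMM scale) for each of the 43 tested regulators, grouped and coloured by role, with bars for the 95% confidence interval of the edgeR fit on 3 libraries per group. Values run from -2.11 for SRSF7 to 1.23 for CLK2, with 6 SR protein genes at or below -1.08. Values scaled to mitochondrially encoded mRNAs lie lower, and only CLK2 and CLK3 stay above 0.

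These directions are relative to the bulk of all mRNAs. The 13 mRNAs of the mitochondrial genome, which RNA polymerase II does not transcribe, took 3.04% to 3.22% of counts with DMSO and 4.67% to 4.98% with AZD4573. Scaling the libraries to them shifted the all-gene median from 0.03 to -0.71 on the log2 scale and that of the regulators from -0.14 to -0.88. On that scale 31 regulators were called lower and 0 higher, where 9433 of all 17678 genes were called lower and 1769 higher. CLK2 (0.49) and CLK3 (0.39) stayed positive and still passed the adjusted p of the edgeR test. SRSF11 went from 0.62 to -0.12 and SRRM2 from 0.53 to -0.21. Of the 43 regulators, 29 lay below the median of all genes. That number is the same on both scales because the scaling shifts all genes nearly alike. Genes of 10 CPM or more in either group had a TMM-scale median of -0.14, like the regulators. In bulk RNA, fewer cells of a type and less RNA per cell cannot be told apart.

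Among the 11 tested SR protein genes, 8 fell, 1 rose and 2 did not pass, and 6 were called lower (54.5%, against 23.7% of all genes and 28.3% of those at 10 CPM or more in either group). Their median log2 fold change was -1.08. SRSF7, an SR protein with a zinc knuckle that also acts in mRNA export, had 365, 359 and 362 CPM with DMSO and 85.2, 82.0 and 83.9 CPM with AZD4573. It lies at chr2:38743599-38751494 on the minus strand (GENCODE annotation of GRCh38). All AZD4573 libraries were far below all DMSO libraries, a 4.33-fold fall (log2 fold change -2.11, SE 0.04, edgeR adjusted p = 8.9e-13), and 2.42% of all tested genes had a log2 fold change as low. SRSF6, a regulator of exon inclusion with paired RNA recognition motifs, had 493, 501 and 483 CPM with DMSO and 146, 123 and 122 with AZD4573. This was a 3.78-fold fall (-1.92, SE 0.06, edgeR adjusted p = 3.8e-11), with the first AZD4573 library somewhat above the other two.

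SRSF3, the smallest SR protein and an export adaptor like SRSF7, had 506, 474 and 454 CPM with DMSO and 173, 146 and 155 CPM with AZD4573. The groups did not overlap, and the fall was 3.02-fold (-1.60, SE 0.06, edgeR adjusted p = 1.0e-10). SRSF8, an SRSF2-like gene that the annotation holds as 1 exon, was the least abundant of the 6, with 47.3, 48.3 and 47.0 CPM against 20.1, 19.1 and 18.2 (-1.31, SE 0.06, edgeR adjusted p = 2.5e-10). SRSF1, the founding SR protein and a binder of purine-rich exonic enhancers, had 853, 797 and 764 CPM with DMSO and 381, 360 and 356 CPM with AZD4573 (-1.14, SE 0.05, edgeR adjusted p = 2.9e-10). SRSF2, which acts in the nucleus and does not shuttle freely, had 1227, 1301 and 1277 CPM with DMSO and 620, 603 and 574 CPM with AZD4573 (-1.08, SE 0.04, edgeR adjusted p = 2.0e-10). For all 3 genes the groups were well apart.

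The remaining SR protein genes moved less. SRSF5 (222, 242 and 250 CPM with DMSO, 175, 171 and 170 with AZD4573) fell by 0.47 on the log2 scale and SRSF4 (188, 197 and 197 against 160, 154 and 151) by 0.32, both under the fold threshold and both without overlap. SRSF10, a splicing repressor when dephosphorylated, had a log2 fold change of 0.02 (95% confidence interval -0.07 to 0.11, edgeR adjusted p = 0.66). SRSF9 had 0.04 (-0.07 to 0.15, edgeR adjusted p = 0.51). SRSF11, also known as p54, was the exception with 239, 257 and 260 CPM in DMSO libraries and 382, 382 and 399 CPM in AZD4573 libraries. It was 1.54-fold higher on the TMM scale (0.62, SE 0.04, edgeR adjusted p = 2.3e-08) and -0.12 when scaled to mitochondrial mRNAs. Its value lay close to the fold threshold, and without DMSO replicate 1 it was 0.57 and no longer called.

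**Figure D2:**
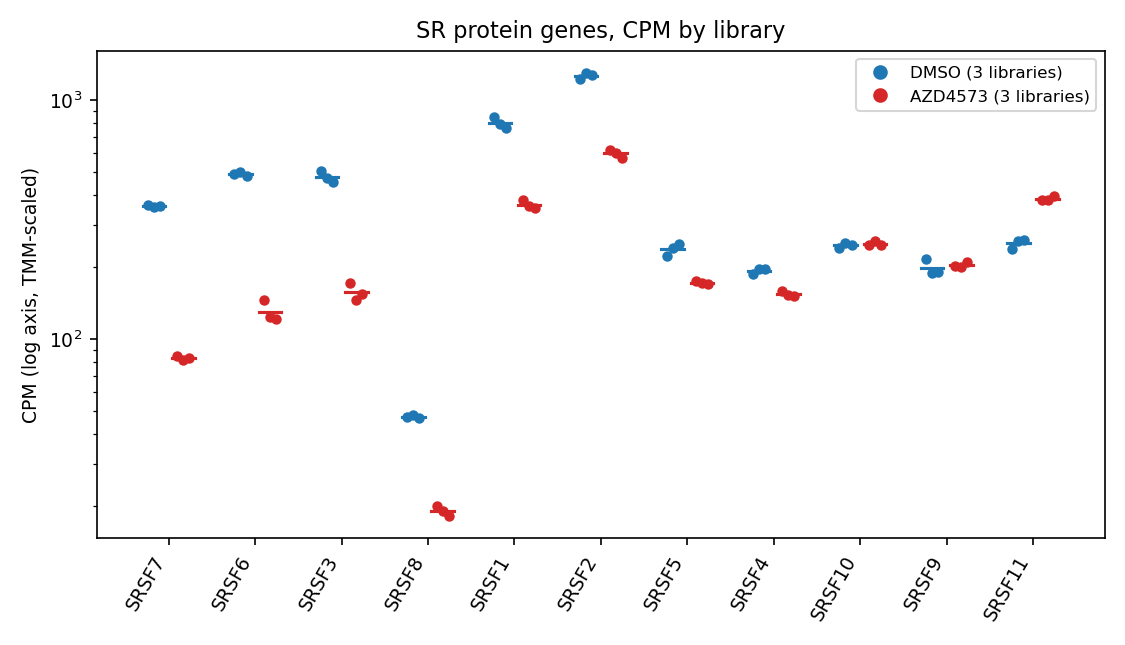
CPM of the 11 tested SR protein genes (vertical axis, log scale, TMM-scaled) in each of 3 DMSO and 3 AZD4573 libraries (points), with group means as lines. The groups are separated for SRSF7, SRSF6, SRSF3, SRSF8, SRSF1, SRSF2, SRSF5 and SRSF4 (lower with AZD4573) and for SRSF11 (higher on this scale, -0.12 in log2 when scaled to mitochondrial mRNAs), and overlap for SRSF10 and SRSF9.

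Summed over the family, SR protein transcripts amounted to 4583 ± 43.3 CPM in DMSO libraries and 2526 ± 57.4 CPM in AZD4573 libraries (SD, n = 3 each), a ratio of 0.551. The ratio of SRSF11 to SRSF7, which does not depend on the scaling of the libraries, went from 0.696 ± 0.0361 to 4.63 ± 0.138 (SD, n = 3), a 6.66-fold change in the relative levels of these 2 genes. SRSF11 to SRSF6 went from 0.511 ± 0.0267 to 2.99 ± 0.343 (SD, n = 3). Neither ratio overlapped between the groups, which follows from pairing the SR protein gene called higher with the 2 that fell most.

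Of the 5 SR-related genes, 0 were called (0 also with DESeq2), although all 5 passed the adjusted p, with a median log2 fold change of -0.34. Over all genes 23.7% were called lower and 22.7% higher, and 37.4% and 37.3% passed the adjusted p as lower and higher. SRRM2, a large scaffold of nuclear speckles, had 584, 677 and 717 CPM with DMSO and 964, 987 and 904 with AZD4573. It rose by 0.53 on the log2 TMM scale (edgeR adjusted p = 5.9e-06) but was at -0.21 under the mitochondrial scaling. SON, the other speckle scaffold, went the opposite way, from 513, 545 and 559 CPM to 408, 404 and 394 (-0.42). TRA2B and TRA2A, paralogs that bind GAA-rich exonic enhancers, had log2 fold changes of -0.40 and -0.12, and SRRM1, a coactivator that bridges enhancers and the spliceosome, -0.34. The ratio of TRA2B to TRA2A went from 3.28 ± 0.107 to 2.69 ± 0.135 (SD, n = 3).

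The kinases that phosphorylate SR proteins did not move together. Of 6, CLK4 and SRPK2 were called lower (33.3%), CLK2 and CLK3 were called higher (33.3%), and SRPK1 did not pass. Over all genes 23.7% were called lower and 22.7% higher, and 28.3% and 12.1% at 10 CPM or more in either group. CLK2 had 43.6, 57.0 and 55.8 CPM with DMSO and 123, 126 and 117 with AZD4573, a 2.34-fold rise (1.23, SE 0.08, edgeR adjusted p = 1.3e-08). CLK3 had 32.6, 39.3 and 42.3 CPM with DMSO and 79.1, 86.0 and 84.2 with AZD4573, a 2.19-fold rise (1.13, SE 0.08, edgeR adjusted p = 2.0e-08). Both genes had their lowest DMSO value in the first library, and in both the groups were well apart. CLK4 had 12.5, 14.1 and 13.4 CPM with DMSO and 7.41, 7.61 and 6.60 with AZD4573, a 1.85-fold fall (-0.89, SE 0.09, edgeR adjusted p = 5.3e-07). CLK1, its closest relative, had 41.2, 44.1 and 46.1 CPM with DMSO and 48.9, 55.3 and 54.0 with AZD4573, a log2 fold change of 0.27 (edgeR adjusted p = 0.0012) that was -0.47 under the mitochondrial scaling.

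SRPK2 had 175, 171 and 171 CPM with DMSO and 104, 97.2 and 92.8 with AZD4573, a 1.76-fold fall (-0.82, SE 0.05, edgeR adjusted p = 3.2e-09). SRPK1, its paralog, had 112, 108 and 110 CPM with DMSO and 110, 109 and 113 with AZD4573. Its log2 fold change was 0.01 (95% confidence interval -0.08 to 0.10, edgeR adjusted p = 0.79). SRPK2 was thus above SRPK1 in each DMSO library and below it in each AZD4573 library, with a ratio of 1.57 ± 0.0143 and 0.884 ± 0.0616 (SD, n = 3). Among the CLKs, the ratio of CLK2 to CLK4 went from 3.90 ± 0.361 to 16.9 ± 0.674 (SD, n = 3), a 4.34-fold change, and that of CLK2 to CLK1 from 1.19 ± 0.119 to 2.32 ± 0.174 (SD, n = 3). CLK2 rose most and CLK4 fell most of the CLKs, so a large change in their ratio follows from the choice of pair. The summed kinase transcripts were 430 ± 11.3 and 474 ± 6.5 CPM (SD, n = 3).

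**Figure D3:**
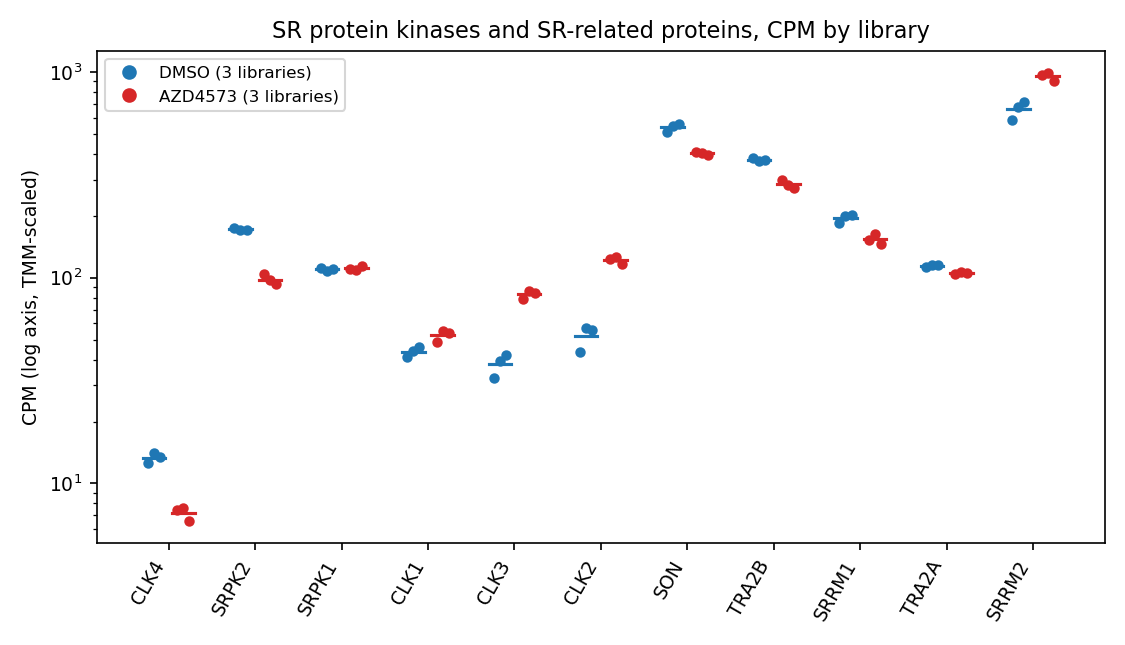
CPM of the 6 SR protein kinase genes and the 5 SR-related genes (vertical axis, log scale, TMM-scaled) in each of 3 DMSO and 3 AZD4573 libraries (points), with group means as lines. CLK4 and SRPK2 are lower with AZD4573, CLK2 and CLK3 are higher (also when scaled to mitochondrial mRNAs, at 0.49 and 0.39 in log2), CLK1 is slightly higher on this scale only, and SRPK1 overlaps. Of the SR-related genes, SRRM2 is higher on this scale only, and SON, TRA2B, SRRM1 and TRA2A are lower.

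Of the 21 tested genes named HNRNP, 8 fell, 7 rose and 6 did not pass on the TMM scale. Genes of hnRNP proteins that carry other symbols lie outside the name rule. Of all genes, 37.4% fell and 37.3% rose. All 7 hnRNP genes that rose were below 0 under the mitochondrial scaling. Only HNRNPDL and HNRNPLL were called lower (9.52%), and 0 were called higher (0 also with DESeq2). The shares were 23.7% lower and 22.7% higher over all genes, and 28.3% and 12.1% at 10 CPM or more in either group. HNRNPDL, a paralog of HNRNPD that regulates its own mRNA, had 436, 450 and 437 CPM with DMSO and 166, 173 and 176 with AZD4573, a 2.56-fold fall (-1.36, SE 0.04, edgeR adjusted p = 2.1e-11). HNRNPLL, which represses variable exons of CD45 in lymphocytes, had 75.6, 75.0 and 71.6 CPM with DMSO and 45.8, 43.9 and 45.9 with AZD4573, a 1.64-fold fall (-0.71, SE 0.05, edgeR adjusted p = 1.4e-08). The replicates of both genes lay close together and the groups were well apart.

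In the A, B and D types, HNRNPD, known as AUF1 for its binding to AU-rich elements, fell by 0.53 on the log2 scale (edgeR adjusted p = 6.2e-08), and HNRNPAB (520, 513 and 501 CPM with DMSO, 387, 389 and 384 with AZD4573) fell by 0.40. HNRNPA1, a repressor of exon inclusion, had 1606, 1553 and 1565 CPM with DMSO and 1332, 1392 and 1395 with AZD4573. Its fall was small (-0.20, edgeR adjusted p = 0.00067), although each AZD4573 library lay below each DMSO library. HNRNPA2B1 (-0.06), HNRNPA0 (-0.02), HNRNPA3 (0.04) and HNRNPA1L2 (-0.14) did not pass. For HNRNPA2B1 the 95% confidence interval was -0.16 to 0.03, whereas HNRNPA1L2, a retrocopy of HNRNPA1 with 1.18 to 2.08 CPM, had an interval of -0.63 to 0.35.

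HNRNPC, a binder of uridine tracts and the single C-type gene with enough counts, had 1217, 1096 and 1068 CPM with DMSO and 1417, 1493 and 1523 with AZD4573. It rose by 0.39 on the TMM scale (edgeR adjusted p = 1.6e-05) and was at -0.35 under the mitochondrial scaling. The F and H genes, whose proteins bind runs of guanine, split: HNRNPH1 fell by 0.46, HNRNPH3 (0.17) and HNRNPH2 (0.20) were slightly higher on the TMM scale and lower under the mitochondrial scaling, and HNRNPF did not pass. HNRNPF had 1136, 1114 and 1085 CPM with DMSO and 1095, 1096 and 1057 with AZD4573 (-0.04, 95% confidence interval -0.13 to 0.05, edgeR adjusted p = 0.41).

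Beside HNRNPLL, the K to U group held HNRNPR (-0.37) and HNRNPL (-0.32), a CA-repeat binder and paralog of HNRNPLL, both of which fell. HNRNPM did not pass (-0.01, edgeR adjusted p = 0.90). HNRNPK, a binder of C-rich RNA, had 817, 748 and 743 CPM with DMSO and 840, 871 and 889 with AZD4573 (0.17, edgeR adjusted p = 0.0048), but with library size as the only scaling neither HNRNPK nor HNRNPH3 passed (edgeR adjusted p = 0.144 for each, both at 0.07). HNRNPU, a nuclear matrix protein also called SAF-A, was at 0.22, HNRNPUL2 at 0.30 and HNRNPUL1 at 0.38 on the TMM scale. Under the mitochondrial scaling these 4 genes were at -0.57, -0.52, -0.43 and -0.36, in the order HNRNPK, HNRNPU, HNRNPUL2 and HNRNPUL1.

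**Figure D4:**
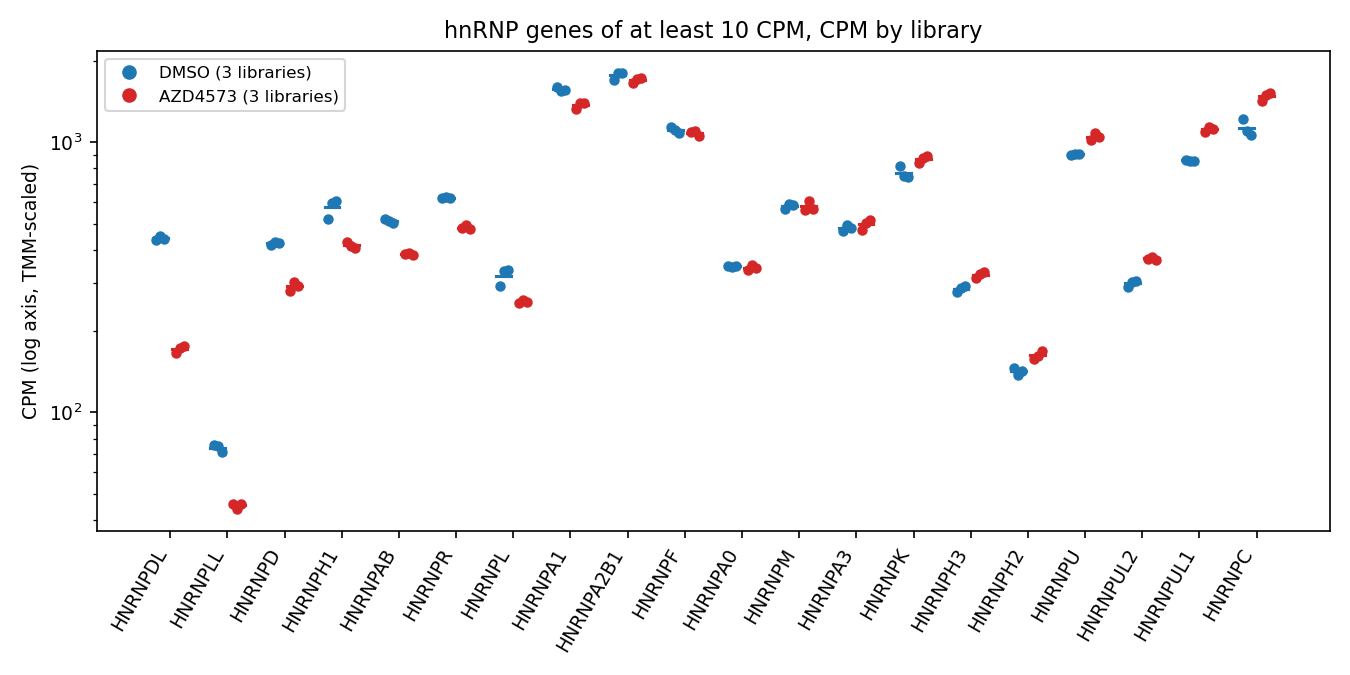
CPM of the 20 hnRNP genes of at least 10 CPM (vertical axis, log scale, TMM-scaled) in each of 3 DMSO and 3 AZD4573 libraries (points), with group means as lines, ordered by log2 fold change. HNRNPDL and HNRNPLL stand apart at the left, most others shift little, and the genes at the right that are higher here, such as HNRNPC at 0.39 in log2, are lower when scaled to mitochondrial mRNAs.

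The summed transcripts of the genes named HNRNP were 13225 ± 38.3 CPM with DMSO and 12993 ± 257 CPM with AZD4573 (SD, n = 3), a ratio of 0.983. Against the SR proteins, the hnRNP sum was 2.88, 2.87 and 2.91 times as high in the DMSO libraries and 4.90, 5.28 and 5.26 times as high in the AZD4573 libraries. This ratio, free of library scaling, rose 1.78-fold and the groups did not overlap. Levels between genes were compared as CPM per kb of annotated exon. SRSF2 was the most abundant regulator with DMSO (426 CPM per kb) and the fourth with AZD4573 (201 CPM per kb), and HNRNPF went from second (340) to first (331). SRSF7 moved from rank 12 of 48 to rank 33 (89.5 to 20.7 CPM per kb), SRSF6 from 11 to 29 and SRSF3 from 16 to 30. CLK2 moved up from rank 37 to rank 24 (14.2 to 33.3 CPM per kb). Within the other role groups, SRRM2 (50.8 CPM per kb), SRPK2 (22.2), HNRNPAB (241), HNRNPC (155) and HNRNPK (135) were highest with DMSO. The exon length counts every annotated isoform, so genes with long rare isoforms, such as CLK3 with 19697 exon bases, come out low.

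Annotated gene span, which runs to the outermost isoform, separated the SR protein genes. The 6 called lower spanned 3.22 kb (SRSF2) to 11.25 kb (SRSF3) from first to last annotated base, and the other 5 spanned 16.58 kb (SRSF10) to 47.37 kb (SRSF11). The spans of SRSF5 (chr14:69726900-69772005, plus strand) and SRSF9 (chr12:120461672-120495946, minus strand) include upstream isoforms. Their RefSeq starts, at 69767142 and 120469748, are those of the canonical GENCODE transcripts. Counted from there, both genes would also lie under 12 kb, and neither was called. The separation therefore depends on the isoforms counted. Across the 11 SR protein genes, span and log2 fold change had a Spearman's rho of 0.66 and a Pearson's r of 0.78, given as a description across genes of the same 6 libraries. Both coefficients use the annotated spans, so they too depend on the isoforms counted. Over all 43 regulators rho was 0.29 and r 0.03, over the 21 hnRNP genes both were 0.2, and over 9230 protein-coding genes at 10 CPM or more in either group rho was -0.03. With bounds set after these values were seen, 7 of 14 regulators under 12 kb were called lower and 0 higher, against 26.9% and 13.6% of 1925 protein-coding genes of that size. Of these 7, 6 were the SR protein genes whose lengths led to the bound, and the seventh was HNRNPDL. From 12 to 48 kb, 2 of 26 regulators were called lower and 3 higher, against 30.3% and 10.1% of 3797 genes. HNRNPAB (6.63 kb) and HNRNPA1 (6.90 kb) were short genes that were not called, and SRPK2, the longest at 288.61 kb, was called lower.

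**Figure D5:**
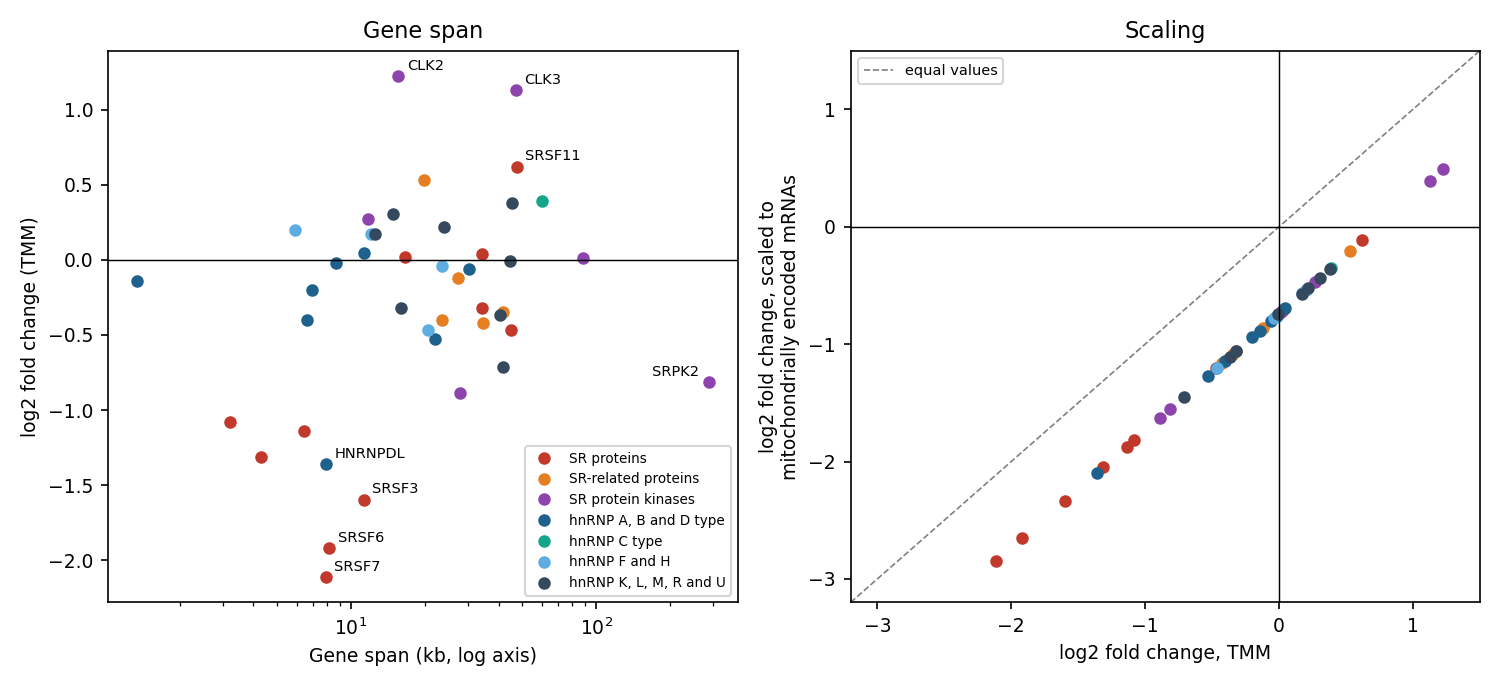
Left, log2 fold change (TMM) against gene span in kb (log axis) for the 43 tested regulators, coloured by role. Right, the log2 fold change scaled to mitochondrially encoded mRNAs (vertical) against that on the TMM scale (horizontal), where the dashed line marks equal values. SR protein genes with an annotated span under 12 kb lie at or below -1.08 at the left. At the right every regulator lies below the dashed line, with only CLK2 and CLK3 above 0 on the vertical axis.

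Isoforms annotated as nonsense-mediated decay or retained intron were common among the regulators, in all 3 classes of call. They made up 66.7% of the 12 transcripts of SRSF7, 75.0% of 8 for SRSF3 and 76.9% of 13 for CLK4, but also 85.7% for HNRNPA2B1, which did not pass. CLK2 had 0 among 7 annotated transcripts. Over the 43 regulators, this share and the log2 fold change had a Spearman's rho of -0.22. Counts per gene sum over isoforms, so productive and decay-bound transcripts were not separated.

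Of the 48 regulators, 24 share exon bases with another gene, and the counts were estimated without use of strand. SRSF1 shares 32.7% of its exon bases with ENSG00000266086 on the same strand, which went from 6.07 to 73.4 CPM. How reads were divided between these genes was not tested. SRSF2 shares 27.7% with MFSD11, SRSF9 43.6% with GATC (73.0 to 35.7 CPM) and HNRNPA3 53.6% with NFE2L2 (68.3 to 140 CPM), each on the opposite strand. HNRNPUL2 shares 44.3% with a readthrough transcript to BSCL2 (147 to 190 CPM). HNRNPH2 shares 15.8% on the same strand with the readthrough gene RPL36A-HNRNPH2 (311 to 507 CPM, beside 142 to 163 CPM for HNRNPH2), and HNRNPA1L2 lies wholly within another annotated gene. The values of these genes are therefore less certain. SRSF7, SRSF3, SRSF8, SRSF11, CLK2, HNRNPDL and HNRNPLL share no exon bases. Processed pseudogenes can take reads from their parents, and the 75 HNRNPA1 pseudogenes held 3.02% to 3.46% as many counts as HNRNPA1, with under 1% for each other parent.

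RefSeq promoter windows, from 250 bases before to 50 bases after the start, were matched for 43 of the 48 regulators, of which 39 were tested. The 6 promoters printed above show the range of these windows: SRSF7 and SRSF3 carry TATAAA close to the start, SRSF6 has repeated CCGCCC, the reverse complement of GGGCGG, and CLK2 holds CACGTG. Each motif was searched on both strands, and no motif contains another. For each regulator the window nearest its canonical GENCODE start was used. Tested genes were represented by the first window listed for each gene, so the 2 shares come from windows chosen differently. TGACG was in 24 of 39 windows (61.5%), against 33.9% of the 11422 windows of tested genes. TATAAA was in 6 (15.4%, against 6.0%), CCAAT in 19 (48.7%, against 36.5%) and CACGTG in 7 (17.9%, against 10.0%). GGGCGG was in 27 (69.2%, against 68.0%), CCGGAAG in 6 (15.4%, against 18.8%) and AGATAA in 0 (against 5.1%). Only exact matches were counted, so variants of a site were missed, such as TGATAA just before the SRSF1 start. Between calls, TGACG was in 6 of 9 windows of genes called lower and 2 of 3 of those called higher, and CCAAT in 4 of 9 and 0 of 3. These matches are a description of the letters in the windows.

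Other splicing regulators were 82 tested rows of a list of RNA-binding proteins and SR-associated factors outside the name rule. Of these, 21 were called lower (25.6%, against 23.7% of all genes) and 13 higher (15.9%, against 22.7%), with a median log2 fold change of -0.01. Over genes at 10 CPM or more in either group, 28.3% were called lower and 12.1% higher. The largest falls were in LUC7L (46.1 to 15.5 CPM, -1.58) and SCAF8 (165 to 69.2 CPM, -1.26), with PRPF38B (228 to 87.5 CPM, -1.38) between them. LUC7L is a U1 snRNP-associated factor and PRPF38B a protein with an arginine- and serine-rich tail. The largest rises among genes that reached 10 CPM in either group were in MBNL2, a muscleblind splicing factor that reaches this level only with AZD4573 (3.32 to 17.6 CPM, 2.40), ESRP1, an epithelial splicing factor (21.9 to 61.9 CPM, 1.503), and 1 of the 2 rows named MATR3 (16.1 to 34.6 CPM, 1.10). The other MATR3 row held most of the counts and went from 263 to 292 CPM (0.15). TNPO3, the import receptor of SR proteins, was looked at after its values were seen and went from 155 to 80.4 CPM (-0.95, edgeR adjusted p = 5.3e-10).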

How the data were processed

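Bulk RNA-seq of H9 cells comprised 3 DMSO and 3 AZD4573 libraries, grouped by their labels. The authors trimmed reads with Cutadapt 2.3, mapped them with STAR 2.7.8a to the Ensembl GRCh38 genome and deposited expected counts per gene from RSEM 1.3.3 at default parameters, which ignore strand. The labels describe poly(A) selection, whereas the supplemental methods describe rRNA depletion. The deposited values are whole numbers without normalization. Of 61546 rows, 5 that are no gene (reporter sequences) held 0 counts and were left out.

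Counts were analysed in R 4.3.3 with edgeR 4.0.16 (TMM, low-count filter with a minimum count of 10, quasi-likelihood test, Benjamini-Hochberg adjustment over 17678 genes, no replicate block). The procedure was tested on simulated data. Calls needed a change of at least 1.5-fold with an adjusted p under 0.05. Exon lengths, spans and transcripts came from GENCODE release 44, and promoters from RefSeq. CPM were printed per library for regulators called at 10 CPM or more and for the most abundant regulator of each role group. Further members were described to complete each group. The regulators, the role groups and the list of other splicing regulators were chosen with earlier results of these data known. Alternatives comprised mitochondrial scaling, library size only, RLE factors, other filters, a replicate block, DESeq2 1.42.0, other thresholds and leaving out each library. No library of a group was a copy of another, with a chi-square between their counts of 5.59 to 21.2 for each degree of freedom. Protein sequences were not used here. A further cell type marker is not reported here.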

Additional observations from a re-analysis of the deposited data

How the results depend on the processing

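The count of 10 regulators called lower was 22 with the adjusted p alone and 31 with mitochondrial scaling, and the 3 called higher became 12 and 0. For the other splicing regulators, 21 lower and 13 higher became 37 and 32 with the adjusted p alone, 53 and 3 with mitochondrial scaling, 7 and 5 at a fold change of at least 2, and 8 were higher with library size only. Over all genes, 4191 lower and 4012 higher became 6606 and 6596, 9433 and 1769, and 2450 and 2643 under the same 3 changes. Leaving out 1 library at a time gave 10 to 10 regulators lower and 2 to 3 higher, 19 to 22 and 11 to 16 other regulators, and 4142 to 4337 and 3872 to 4119 of all genes. SRSF11 lost its call without DMSO replicate 1 (0.57), with library size only (0.52) and without a filter (0.58). DESeq2 called 10 regulators lower and 3 higher.

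With a replicate block, 10 regulators were lower and 3 higher, 21 and 13 other regulators, and 4162 and 3926 of all genes. The replicate numbers share no stated source, and deviations of same-numbered libraries correlated at -0.02, 0.04 and 0.03. These values show no strong pairing by number, but they cannot exclude a weak one.

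Of 559 log2 fold changes of the 43 regulators over 13 alternatives, 512 kept their direction and their side of an adjusted p of 0.05 (the fold threshold of the calls aside), 3 no longer passed (HNRNPH3 and HNRNPK with library size only, TRA2A with at least 10 counts in every library), 11 newly passed and 33 changed sign, 14 of them with mitochondrial scaling, whose construction lowers every value. There HNRNPA3 was -0.70, HNRNPC -0.35, HNRNPH3 -0.57, HNRNPH2 -0.54, HNRNPK -0.57, HNRNPU -0.52, HNRNPUL2 -0.43, HNRNPUL1 -0.36, SRPK1 -0.73, CLK1 -0.47, SRSF10 -0.72, SRSF9 -0.70, SRSF11 -0.12 and SRRM2 -0.21. The other 19 were in genes that did not pass the test. With library size only, HNRNPA3 was -0.061, SRPK1 -0.092, SRSF10 -0.085 and SRSF9 -0.064. Without a filter, SRPK1 was -0.030, SRSF10 -0.022 and SRSF9 -0.0036. With at least 10 counts in every library, HNRNPA0 was 0.019 and HNRNPM 0.031. Leaving out 1 library at a time gave ranges that crossed 0, from -0.35 to 0.012 for HNRNPA1L2, -0.043 to 0.0088 for HNRNPM, -0.010 to 0.022 for SRPK1, -0.012 to 0.026 for SRSF10 and -0.0049 to 0.093 for SRSF9. The cause of these changes of sign was not tested. The library depth does not limit the abundant regulators, whereas HNRNPA1L2, at 1.18 to 2.08 CPM, has a wide interval.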

Other observations

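Of the 135 pseudogene rows and 2 hyphenated rows left out by name, 23 passed the low-count filter. HNRNPA1P49 went from 1.27 ± 0.444 CPM with DMSO to 12.1 ± 0.783 CPM with AZD4573 (SD, n = 3, log2 fold change 3.26, edgeR adjusted p = 2.2e-09), while its parent gene HNRNPA1 fell by 0.20. HNRNPA1P59 went from 0.226 to 1.05 CPM (2.20, edgeR adjusted p = 8.9e-06). HNRNPA1P21 moved the other way, from 26.2, 26.4 and 24.1 CPM to 10.3, 8.07 and 8.06 CPM (-1.54, edgeR adjusted p = 4.4e-09), and HNRNPA1P48 had 11.3 and 10.3 CPM (-0.14, edgeR adjusted p = 0.11). These 4 pseudogenes were picked after their values were seen. Pseudogene counts depend on how RSEM divides reads between near-identical sequences and are uncertain. The readthrough transcript HNRNPUL2-BSCL2 went from 147 to 190 CPM (0.37), beside 0.30 for HNRNPUL2, with which it shares exons.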
